A study of Brassica rapa subsp. pekinensis with 6 samples.

Results

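This account covers 115 abundant genes whose scaled read counts were nearly equal in sterile and fertile flower buds of Chinese cabbage (Brassica rapa subsp. pekinensis), out of 43354 identifiers in the count table. They were chosen from the counts themselves, in 2 steps. A gene had to carry a Bra identifier and reach 200 raw CPM (counts scaled to the library total) in every one of the 6 libraries, which 373 of 41019 Bra genes did. Its mean count in sterile libraries, after division by a size factor, then had to lie within 7% of that in fertile libraries. The size factor of a library was the median, over genes with counts in all libraries, of its count divided by the geometric mean of that gene.

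Sterile buds (3 libraries) and fertile buds (3 libraries) came from the GMS line AB01, in which male sterility is inherited through multiple alleles, and the design calls the replicates biological. Both groups were greenhouse plants sown after vernalization, and total RNA was taken from buds. No source used here gives the bud stage, the plant age or the number of plants behind a library. The labels do not say which allele each plant carried. Totals were 31893913 to 33615379 counts in sterile libraries and 27637426 to 35564895 in fertile libraries.

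A flower bud holds sepals, petals, carpels and stamens, and the pollen and its nurse tissue, the tapetum, make large amounts of a few kinds of messenger RNA. Male sterile plants form no functional pollen. Genes needed by every cell are often called housekeeping genes, and those with a steady level between conditions serve as internal standards in quantitative PCR. Such a level is always relative to the other RNA in the sample, so it depends on how libraries are put on a common scale. In whole buds, fewer cells of a type and less RNA per cell cannot be told apart. No member has a gene name or product in the files or in the RefSeq gene table used, so members are described by identifier, level and coding length, and the tissue label could not be checked against markers.

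Levels were moderate to high. Scaled CPM, used from here on, is the count divided by the size factor, on the CPM scale of the mean library total. The 115 members had a median of 309 raw CPM averaged over the libraries, with a range of 228 to 785. Their median scaled CPM was 305, 301 and 319 in the sterile libraries and 296, 310.2 and 311 in the fertile libraries. Those medians overlapped between the groups, as the choice of members makes likely. Members had at least 7204 counts per library on average. Counting error alone, as a root mean square over the 6 libraries, was 0.645% to 1.19% of a member's level.

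The member with the most reads was Bra019722. It stood at 841, 767 and 781 scaled CPM in sterile buds and at 759, 779.6 and 711 in fertile buds. One sterile library was above all others and one fertile library below them, and the groups overlapped. The next, Bra037296, stood at 742, 748 and 823 scaled CPM in sterile buds, against 723, 751 and 793 in fertile buds, where the third replicate was the highest of each group. Bra015638 stood at 694, 706 and 721 scaled CPM in sterile buds and 677, 714 and 703 in fertile buds, a narrower spread in both groups. The other 9 of the 12 most abundant members (Bra003645, Bra003009, Bra005169, Bra027469, Bra004950, Bra012223, Bra032937, Bra009583 and Bra006661) averaged 539.97 to 701 raw CPM. Of these 12, only Bra012223 had groups that did not overlap, with 558, 543 and 561 scaled CPM in sterile buds and 586, 578 and 576 in fertile buds. That gap corresponds to a ratio of 0.956.

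**Figure D1:**
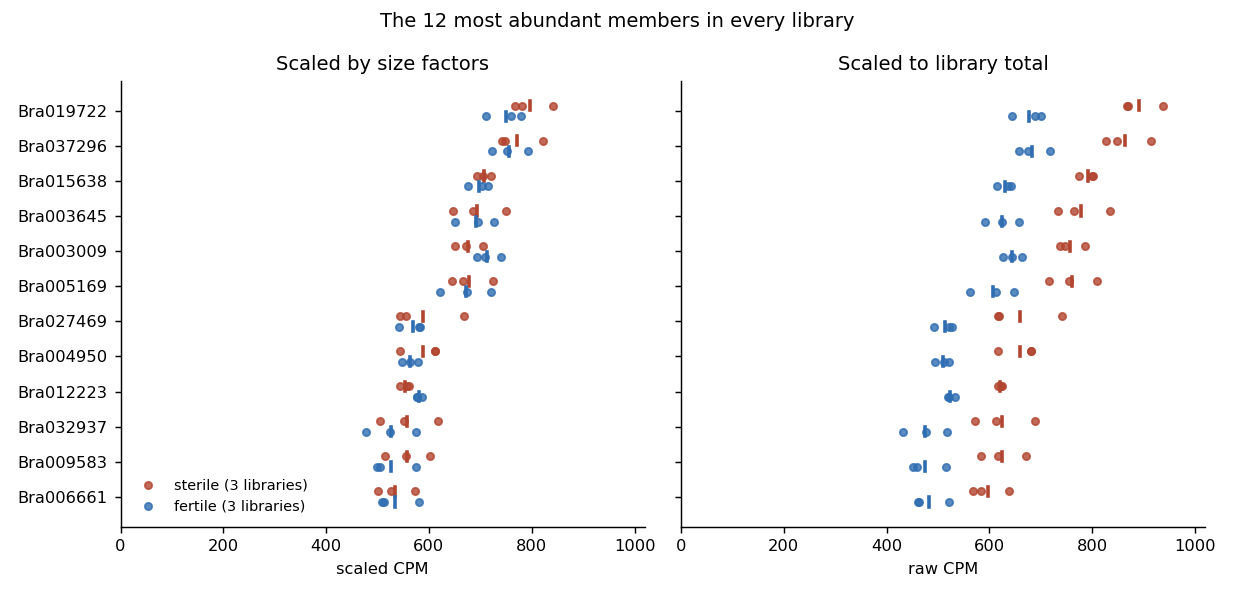
Levels of the 12 members with the highest mean raw CPM, one row per gene, as scaled CPM (left panel) and raw CPM (right panel). Points are libraries and short vertical lines group means, sterile above fertile in each row. Among these genes, groups overlap on the left in all but Bra012223, and sterile points lie to the right on the raw scale.

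Read number and level per length ordered the members differently. RPKM divides by gene length and by the library total, so it allows levels of different genes to be compared. By RPKM the first was Bra024832, with a coding length of 234 nt, at 2382, 2390 and 2325 RPKM in sterile buds and 1751, 1875 and 1846 in fertile buds. After it came Bra040286 (186 nt, the shortest member), Bra027469 (372 nt), Bra037296 (516 nt) and Bra015638 (498 nt). Bra040286 averaged 1912 ± 86.1 RPKM in sterile buds and 1460 ± 55.7 RPKM in fertile buds (SD, n = 3 each). At the other end, Bra000114 (9828 nt) stood at 30.9, 34.9 and 29.8 RPKM in sterile buds and 28.1, 26.5 and 24.8 in fertile buds. Median RPKM over members was 332, and 385 over the 258 other abundant Bra genes. RPKM keeps the library total as its scale, as raw CPM does.

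That scale decides whether these genes are called level. The median ratio of sterile to fertile was 1.00 with size factors, 1.24 in raw CPM and 1.14 with upper-quartile factors. In raw CPM every member had a ratio above 1, from 1.15 to 1.32, and none lay in the window, as the range of 7% to either side of 1 is called from here on. The rule fixes this. Size factors, divided by the library total relative to the mean total, averaged 1.12 in sterile and 0.904 in fertile libraries. Genes held level by size factors therefore stand higher in sterile buds in raw CPM. All sterile libraries exceeded all fertile libraries in raw CPM for 113 of the 115, where 59.5% of genes tested and 75.3% of the abundant Bra genes showed the same. The exceptions were Bra026150 and Bra040927, both also among the 5 members with the widest spread within groups. The count of 113 follows largely from the rule, and nothing is read from it. In scaled counts the groups of 98 members overlapped, 5 members lay wholly higher in sterile buds and 12 wholly lower. For all genes tested 66.4% did not overlap, and for the abundant Bra genes 63.5%, but the rule used this contrast and nothing is read from the difference. The 5 were Bra024832, Bra014743, Bra032118, Bra022019 and Bra025142, and the last stood at 287, 299 and 294 scaled CPM in sterile buds and 285, 279 and 279.6 in fertile buds.

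Members took up 4.55%, 4.39% and 4.55% of the counts of sterile libraries and 3.59%, 3.71% and 3.60% of those of fertile libraries. The difference was 0.865 percentage points, which the choice of members by size factors largely sets. The other abundant Bra genes held 13.9% of sterile counts and 10.9% of fertile counts on average. A set of 2597 genes that edgeR called lower by 10-fold or more in sterile buds held 0.244% ± 0.0126 of sterile counts and 18.2% ± 0.252 of fertile counts (SD, n = 3 each). With those genes left out of the library totals, members held 4.51% ± 0.0906 of the sterile counts and 4.44% ± 0.0669 of the fertile counts (SD, n = 3 each), and the ranges overlapped. On that reduced total the median ratio of members was 1.016, and 99 of the 115 lay in the window. The genes left out were chosen on the same libraries, so this describes their weight in the totals.

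**Figure D2:**
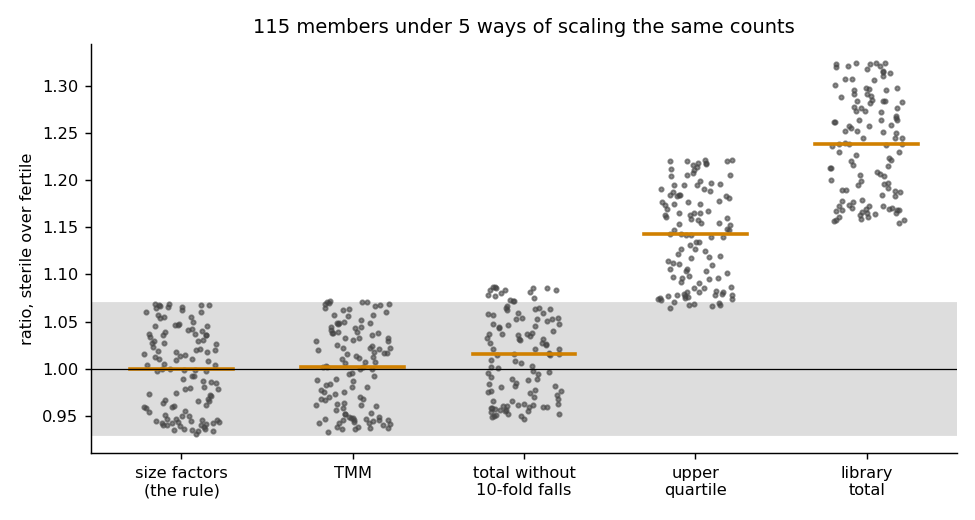
Ratio of mean sterile to mean fertile level for each of the 115 members (points), with the counts scaled in 5 ways, and the median as a horizontal line. The grey band is the window of 7% to either side of 1. The points sit in or near the band with size factors, TMM or a total without genes 10-fold lower in sterile buds, mostly above it with upper-quartile factors and all above it with library totals.

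The edgeR quasi-likelihood test over all 33150 genes, with TMM factors (trimmed mean of M values), called 62.5% at a Benjamini-Hochberg adjusted p under 0.05. It called 0 of the 115 members, 0 had an unadjusted p under 0.05, and DESeq2, which called 49.7% of its genes, also called 0 members by adjusted p, with 2 at an unadjusted p under 0.05. Members could hardly pass, since the rule holds them to a change that the test cannot resolve: the smallest change called among abundant Bra genes was 1.097-fold. With the replicate number as a block 64% of genes were called, and again 0 members. Log2 fold changes of members ran from -0.10 to 0.10 with a median of 0.00, which was also the median of all genes tested. The typical 95% interval reached 0.13 on the log2 scale to either side. Over members, intervals of the fold reached as low as 0.838 (Bra026150) and as high as 1.20 (Bra037409), so a missed call does not show that a gene was equal in both groups. The call depended on libraries and scaling. Without sterile replicate 2, 7 members passed, 5 higher and 2 lower, where 60.1% of genes tested passed. Without sterile replicate 3, Bra020155, Bra040927 and Bra026150 passed as lower, where 59.7% of genes tested passed. With library totals as the scale, edgeR called all 115 higher, where 59.1% of genes tested were called higher and the log2 fold changes of all genes had a median of 0.31. With upper-quartile factors 82 were called higher, against 48.5% of genes tested and a median of 0.19. On the RPKM scale limma called 114 higher, against 61.1% of genes tested. These counts on other scales follow largely from the choice of members by size factors, and nothing is read from them.

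Near-equal group means did not go with a smaller spread between libraries of a group. That spread was not used to choose members. The coefficient of variation within groups, pooled over the groups, had a median of 4.68% in members and 4.55% in the 258 other abundant Bra genes. The quartiles were 3.19% and 6.500% for members and 3.32% and 6.38% for the other abundant genes. No test of this difference was made, and the medians were close. By group, members had a median of 5.14% in sterile buds and 3.80% in fertile buds, and 74 of 115 varied more in sterile buds. The direction was shared, with medians of 4.65% and 3.80% in the other abundant genes and 6.76% and 6.28% in all genes tested. In the median member the spread was 4.52 times that of counting error, with a range of 1.13 to 12.6 over members.

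The steadiest member within groups was Bra036257, at 216, 217 and 221 scaled CPM in sterile buds and 231, 238 and 233 in fertile buds, a pooled coefficient of variation of 1.34%. It was also the member nearest the lower edge of the window, and its groups did not overlap. Bra012223, Bra035673, Bra025142 and Bra036321 followed, at 1.40% to 1.71%. Bra035673 (312 nt) stood at 240.4, 236 and 242 scaled CPM in sterile buds and 237, 239 and 232 in fertile buds. Every library of it lay within 2.503% of its mean over all 6, the closest of any member. For 21 members all 6 libraries lay within 5% of the mean, and for 90 within 10%. The rule favours small values of this measure, since it fixes the group means.

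The widest spread within groups was that of Bra026150 (195 nt), with a coefficient of variation of 11.2%. It stood at 201, 213 and 258 scaled CPM in sterile buds and 222, 232 and 259.8 in fertile buds, so the third replicate was the highest in both groups. Bra037409 (342 nt) stood at 256, 234 and 309 scaled CPM in sterile buds and 238, 257 and 256 in fertile buds. The sterile replicate 3 was 19.5% above the mean of all 6. Bra040927 (447 nt) stood at 283, 318 and 356 scaled CPM in sterile buds and 315, 344 and 358 in fertile buds. These short genes had their highest sterile value in replicate 3, whereas Bra028459, at 8049 nt among the longest members, had its lowest value there in both groups, with 245, 285 and 228 scaled CPM in sterile buds and 278, 265 and 248 in fertile buds. Bra032937 (762 nt), the third widest at 9.71%, had its lowest sterile value in replicate 2 and its lowest fertile value in replicate 3.

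**Figure D3:**
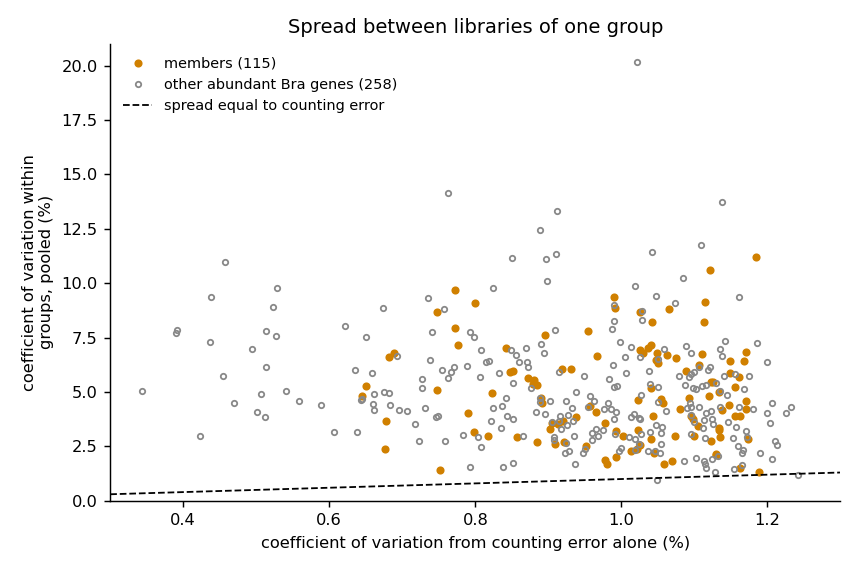
Coefficient of variation within groups, pooled over sterile and fertile buds, against the coefficient expected from counting error alone, both in percent. Filled points are the 115 members, open points the 258 other abundant Bra genes, and the dashed line marks equality. Both kinds of gene cover the same range for the most part, and all members lie above the line.

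Departures of single libraries moved with coding length. All 115 coding lengths, recovered from counts and RPKM, were multiples of 3, with a median of 1107 nt. Members under 600 nt (30 genes) had a median deviation from their group mean of 7.10% in sterile replicate 3 and -4.46% in sterile replicate 2. In fertile buds the same genes deviated by 2.70% in replicate 3 and -4.24% in replicate 1. Members of 1800 nt or more (20 genes) deviated by -1.89% in sterile replicate 3 and by -3.27% in fertile replicate 3. Across members, which share libraries, Spearman's rho of deviation with length was -0.66 in sterile replicate 3, -0.53 in fertile replicate 3, 0.38 in sterile replicate 1 and 0.52 in fertile replicate 1 (n = 115). In the 258 other abundant Bra genes the same values were -0.61, -0.45, 0.34 and 0.43, and in 31015 genes tested -0.32, -0.24, 0.17 and 0.19. The part of RNA quality or library preparation in this was not tested.

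**Figure D4:**
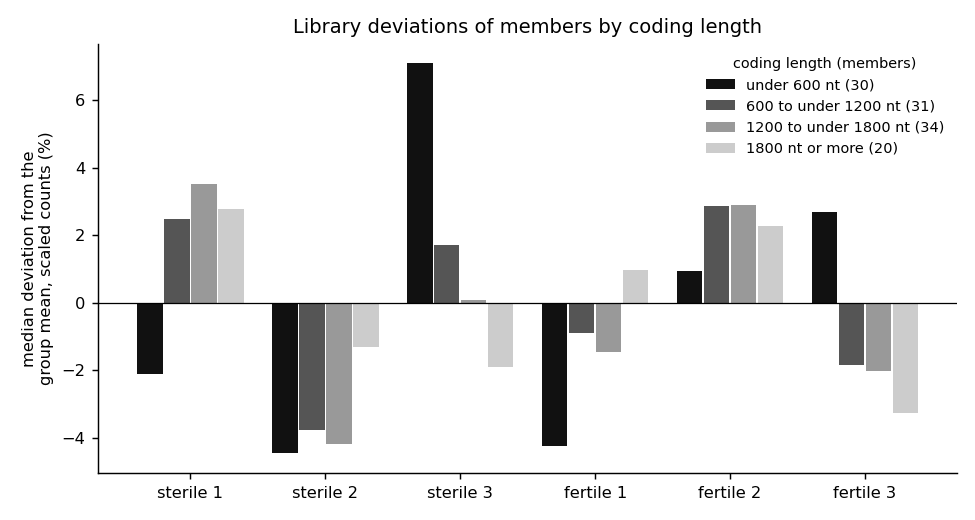
Median deviation of members from their group mean in each library, in percent of scaled counts, for 4 classes of coding length (darker bars are shorter genes). The shortest class stands at 7.10% in sterile replicate 3 and at 2.70% in fertile replicate 3, and the longest class is below 0 in both.

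Library deviations were also shared among members of all lengths. Sterile replicate 2 was the lowest sterile library for 70 of 115 members and the highest for 12. Fertile replicate 2 was the highest fertile library for 66 and the lowest for 11. The median deviation of members on the log2 scale was -0.05 in sterile replicate 2 and 0.03 in fertile replicate 2, while over all genes tested it was -0.01 in each. The other abundant Bra genes deviated by -0.04 and 0.03, so the abundant genes departed together from the scale that the size factors set. Across members, Pearson's r between the deviations in sterile replicate 3 and fertile replicate 3 was 0.74 (n = 115), against 0.76 in the other abundant genes and 0.08 in 31831 genes tested. For the other same-numbered pairs of members r was 0.22 (replicate 1) and -0.40 (replicate 2). Between numbers, r ranged from -0.74 (sterile replicate 1 with fertile replicate 3) to 0.68 (sterile replicate 1 with fertile replicate 2). The highest r was thus that of the replicate 3 pair. Deviations within a group are tied to one mean, so these values of r are not independent. Whether replicate numbers pair the libraries was not tested.

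Above Bra019722 in mean raw CPM stood 26 abundant Bra genes, all outside the window because Bra019722 is the highest member. Of the 20 abundant genes above 1000 raw CPM, 6 were below the window and 14 above it. The demand for 200 raw CPM in every library removes mostly unequal genes, and mostly near that level. Of the 262 genes it removes at a mean of 200 or more, 39 lay in the window. Shares in the window are therefore given over Bra genes classed by mean raw CPM alone. They were 24.8% of 12208 genes at 10 to 50 raw CPM, 28.3% of 4136 at 50 to 200, 27.8% of 327 at 200 to 300, 26.1% of 184 at 300 to 500, 16.5% of 91 at 500 to 1000 and 0 of 33 above 1000. These shares use the values that chose the members and are a description, and counting error is larger in the lower classes. Among the 635 genes with a mean of 200 or more, 24.3% lay in the window. That was 30.8% of the 373 at this level in every library and 14.9% of the other 262. Of the abundant genes outside the window 132 were below it and 126 above it. Coding length of members was close to that of the other abundant genes (median 1098 nt), with 26.1% and 26.4% under 600 nt and 17.4% and 25.6% at 1800 nt or more. No member carries the number next to that of another member, and 32 members share their exact coding length with another. No count of shared lengths is given for the other abundant genes, and nothing is read from it. Whether any members are copies of one gene is not known here.

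**Figure D5:**
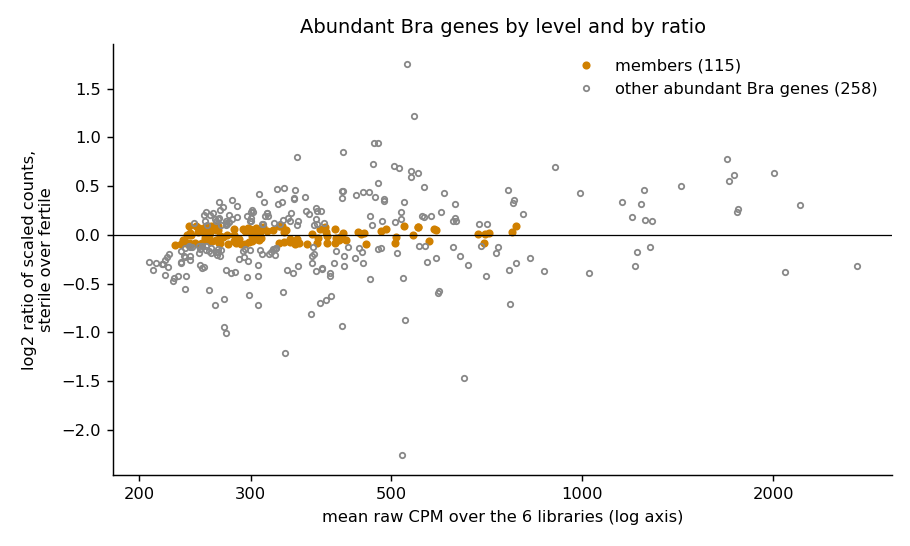
Log2 ratio of scaled counts, sterile over fertile, against mean raw CPM over the 6 libraries (log axis) for the 373 Bra genes that reached 200 raw CPM in all libraries. The 115 members (filled) form the band around 0 and end at 785 raw CPM, and the 258 others (open) go up to 2713.

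The edges of the rule cut through a continuous range. At the lower edge of the ratio, Bra036257 (0.931), Bra018301 (0.934) and Bra011568 (0.934) were inside, and Bra015314 (0.926), Bra024287 (0.925) and Bra039471 (0.925) outside. At the upper edge, Bra034675 (1.069), Bra032118 (1.069) and Bra014743 (1.068) were inside, and Bra013224 (1.0701), Bra020572 (1.0702) and Bra034363 (1.073) just outside. In their lowest library, Bra035298 (200.6 raw CPM), Bra026150 (202) and Bra014955 (202) passed the level asked for, and Bra012788 (199), Bra018242 (198) and Bra021214 (198) missed it. Bra014743, inside, averaged 339 ± 8.78 scaled CPM in sterile buds and 317 ± 11.8 in fertile buds (SD, n = 3 each), and Bra020572, outside, averaged 362 ± 15.1 in sterile buds and 338 ± 4.68 in fertile buds (SD, n = 3 each). The ratios of these neighbours differed by less than the spread between libraries of either gene.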

How the data were processed

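RNA sequencing of buds gave 3 sterile and 3 fertile libraries, grouped by their genotype label, with table columns matched through sample titles. Raw read counts per gene were deposited by the authors, as were RPKM values, which per the file headers are read numbers scaled to gene length and library total. Count divided by RPKM gave one length per member to within 1 part in 10000. The submitters' processing notes list Bowtie2 2.0.6 and TopHat2 2.0.9 without a role. No source used here gives the read counter, strand setting, build or annotation, so overlapping genes and near-identical copies may share reads. RefSeq names (CAAS_Brap_v3.01) matched 1 identifier, no member, so planned gene lists and markers were not examined and no sequence is shown.

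All 33150 genes kept by filterByExpr were tested in R 4.3.3 with edgeR 4.0.16 (TMM, quasi-likelihood), with limma 3.58.1 on log2(RPKM + 1) at RPKM of 1 or more in 3 libraries, and with DESeq2 1.42.0. The standard error is the log2 fold change divided by the root of F. Named genes are the 12 highest in raw CPM, 5 in RPKM, the 5 lowest and 5 highest in spread, and 3 to each side of an edge. Bra000114, Bra022019 and Bra020155 were named after their values were seen. Members and lists were chosen with earlier results of these data known. Intervals cover the spread between these libraries, and counting errors cover counting alone.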

Additional observations from a re-analysis of the deposited data

How the results depend on the processing

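The number of genes meeting the rule was 115. It was 110 with TMM factors (all 110 among the members), 80 with upper-quartile factors (6 shared) and 52 with library size alone (0 shared). It was 162 with a window of 10% to either side, 74 with 5%, 413 at 100 raw CPM and 17 at 400 raw CPM, which differ by construction. Size factors from the abundant genes alone (110) or without the 2597 genes lower by 10-fold or more (111, 95 shared) were chosen after seeing the data. With 1 library omitted at a time, 107 to 121 genes met it, of which 92 to 102 were members. The count of members called was 0 with TMM, DESeq2 or no filter, 115 with library size alone and 82 with upper-quartile factors. It was 114 with limma on RPKM at either pseudocount, where Bra026150 was the exception. With a pseudocount of 1, limma called 61.1% of genes tested higher, and the share at the other pseudocount is not given here. With 1 library omitted, edgeR called 0 to 7 members. The median log2 fold change of members was 0.31 with library size alone and with limma on RPKM, 0.19 with upper-quartile factors, and between -0.02 and 0.03 with 1 library omitted. The share difference was 0.0705 percentage points with those 2597 genes out of the totals, and between 0.839 and 0.917 with 1 library omitted. The median coefficient of variation ran from 4.01% to 5.21% with 1 library omitted. The replicate block called 0 members. Over all genes tested, deviations of same-numbered libraries had a Pearson's r of 0.03, -0.03 and 0.08 (Spearman's rho 0.05, -0.09 and 0.18). Replicate numbers were treated as names only. Sterile replicates 1 and 2 correlated best with another number, but sterile replicate 3 correlated best with fertile replicate 3. For that pair Pearson's r was 0.74 in members and 0.76 in the other abundant genes. The cause of these differences was not tested beyond the definitions themselves. Gene lists were not run. Counting error, as a root mean square over the 6 libraries, was at most 1.19% of a member's level.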
